A study of Homo sapiens with 6 samples.

Results

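CTSV and CTSK encode cathepsins V and K, 2 lysosomal cysteine proteases of the papain family. They were chosen by their measured log2 difference between iron-treated and untreated cells in an earlier analysis of these same arrays, where both were higher with iron, so their differences are given here as a description, with no test. Each has 1 named probe, and the 2 genes stand among 14884 genes with a named probe. The 8 other cysteine cathepsins set beside them (CTSB, CTSC, CTSF, CTSH, CTSL, CTSO, CTSS and CTSZ) were taken by family name and also have 1 named probe each. CTSW, a further cysteine cathepsin, is counted below with other lysosomal proteases. The cells were ARPE-19, an established human line derived from retinal pigment epithelium, held at confluence in 1% serum for 4 weeks and then moved to medium without serum. One group of 3 biological replicates received 250 µM FAC for 2 days, and the other 3 received vehicle and are called untreated. FAC is the usual abbreviation of ferric ammonium citrate, an iron salt. All 6 cultures are of 1 cell line, and each was read on 1 array.

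Cysteine cathepsins are made as inactive proenzymes, tagged with mannose 6-phosphate, delivered to lysosomes and activated there by removal of the propeptide. Retinal pigment epithelium degrades photoreceptor outer segments in its lysosomes, and lysosomes are also where ferritin is broken down to release iron. Cathepsin K is best known as the collagen-degrading enzyme of osteoclasts, and cathepsin V as a potent elastin-degrading enzyme found mainly in thymus and testis. Cystatins and stefins are their tight-binding inhibitors.

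CTSV and CTSL are close paralogs on chromosome 9, and they are shown together because their values on the arrays differed in behaviour, as given below. RefSeq's promoter table (GRCh38.p14) had no entry for CTSK, CTSB, CTSO and CTSS, so their promoters were not searched. It held the other 6 of the 10 cathepsins, CTSV and CTSL among them. Their 250 bases before the listed start had a longest common stretch of 23 bases, printed in capitals inside windows of 30 bases, 5′ to 3′ along the gene. The CTSV window is chr9:97039202-97039231 on the minus strand and the CTSL window is chr9:87726020-87726049 on the plus strand.
CTSV: gtgGCCGGCACAGCCAATCGCAGCGCggga
CTSL: gctGCCGGCACAGCCAATCGCAGCGCagcc
The stretch began 86 bases before the CTSV start and 96 bases before the CTSL start, and on either strand it was found in 2 of 35116 promoters of this length, these 2. It contains the letters CCAAT, which 32% of all those promoters hold on one strand or the other. The RefSeq span of CTSV runs 501 bases upstream of the start used here, so the window lies inside the annotated gene. CACGTG, the core of the element bound by the lysosomal regulator TFEB, was searched on both strands, where it reads the same, and was in neither promoter. It was present in 6.34% of all promoters, and CTSF had 2 copies. TCANNTGA, a wider form that a CACGTG with flanking T and A also fulfils, was searched the same way and was in none of the 6 and in 6.12% of all promoters.

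CTSV was about 2-fold higher in the FAC-treated cells. This was the widest difference among the 10 cysteine cathepsins set side by side here, in a gene chosen for its change. Its log2 intensity was 8.39, 8.10 and 8.24 in untreated replicates 1 to 3, and 9.30, 9.59 and 9.19 in FAC replicates 1 to 3. The groups did not overlap, and the lowest FAC array lay 0.79 log2 units above the highest untreated one. The group means were 8.24 ± 0.15 and 9.36 ± 0.21 (SD, n = 3 each), a log2 difference of 1.11 ± 0.12 (SE), or 2.17-fold. Ranked by log2 difference, CTSV stood at place 9 of 14884 genes. FAC replicate 2 was the highest array and untreated replicate 2 the lowest. The log2 difference was 1.00 without FAC replicate 2 and 1.04 without untreated replicate 2.

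CTSK was also higher with FAC, by less but with closely spaced replicates. Its log2 intensity was 11.88, 11.74 and 11.85 in untreated replicates 1 to 3, and 12.18, 12.21 and 12.19 in FAC replicates 1 to 3. Here too all FAC arrays lay above all untreated arrays, with a gap of 0.30 log2 units. Such a position, FAC above untreated without overlap, was held by 10.4% of all genes, and 1.88% of all genes were called higher by limma at an adjusted p under 0.05; since this contrast chose CTSV and CTSK, nothing is read from their own position. The means were 11.83 ± 0.07 and 12.19 ± 0.01 (SD, n = 3 each), which gives a log2 difference of 0.36 ± 0.06 (SE), or 1.29-fold, at place 259 of 14884 genes by log2 difference. By mean intensity CTSK stood at percentile 99.4 of all genes and CTSV at percentile 78.5, so neither was among the dim probes. Within the untreated group both genes were highest in replicate 1 and lowest in replicate 2. Within the FAC group both were highest in replicate 2, while the lowest was replicate 3 for CTSV and replicate 1 for CTSK. In RNA from whole cultures, more RNA per cell and more cells expressing a gene cannot be told apart.

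**Figure D1:**
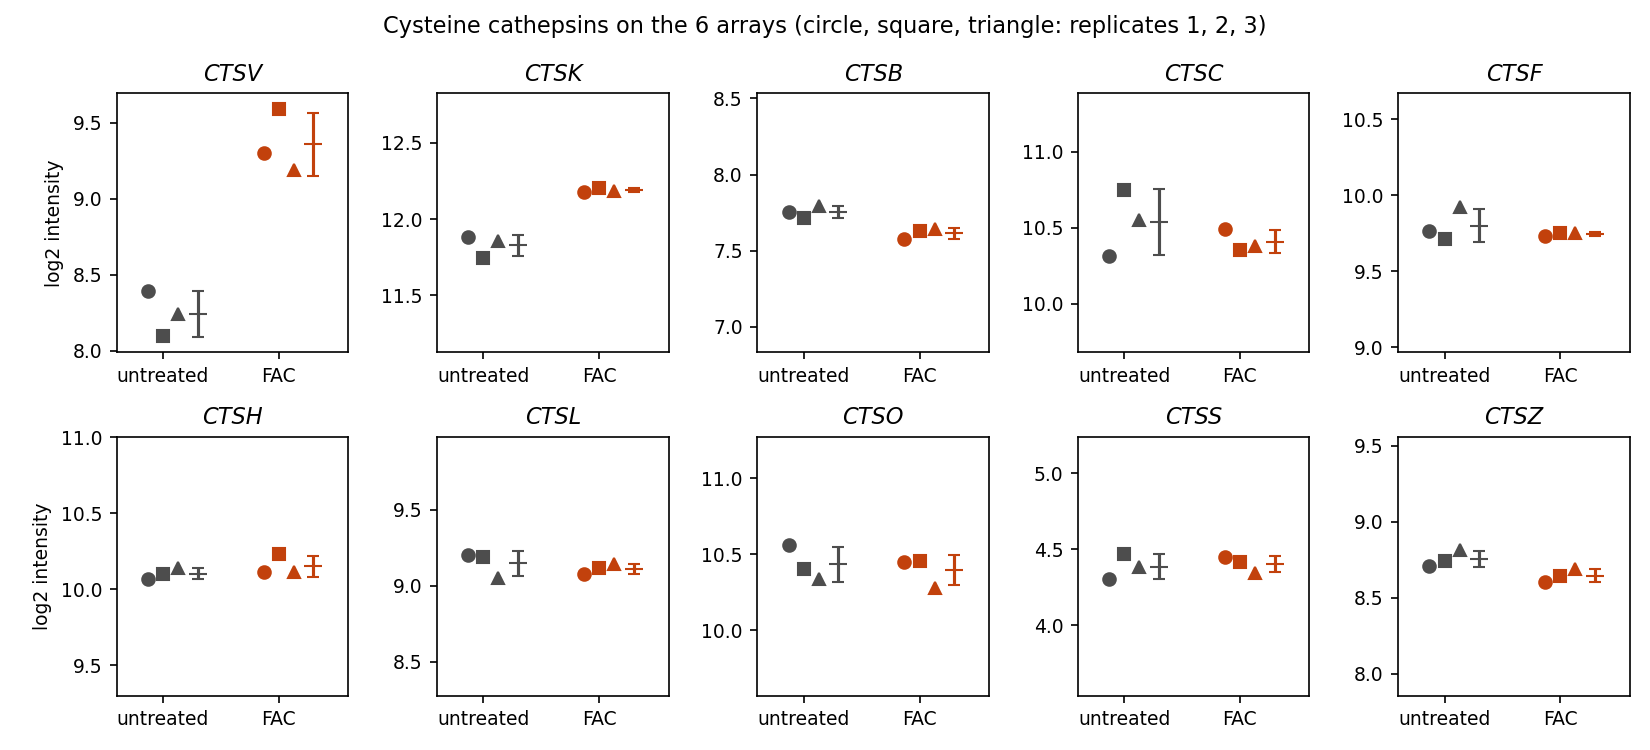
Log2 intensity (y axis) of the 10 cysteine cathepsins in untreated and FAC-treated ARPE-19 cells; circles, squares and triangles are replicates 1, 2 and 3, horizontal marks with bars are means ± SD (n = 3), and every panel spans the same range of log2 units around its own centre. The FAC arrays lie above the untreated arrays for CTSV and CTSK, below them for CTSB and CTSZ, and overlap them for the other 6 genes.

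None of the 8 other cysteine cathepsins passed the test across all genes (limma with Benjamini-Hochberg adjustment, threshold 0.05), and at an unadjusted p under 0.05 there was 1, CTSB, which was lower. Over all 14884 genes 3.73% passed in either direction and 17.2% had an unadjusted p under 0.05, so 0 and 1 of 8 are near that background. The median log2 difference was -0.05 over these 8 genes and -0.0041 over all genes. The groups did not overlap in 2 of the 8, both lower with FAC, against 23.4% of all genes in either direction.

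CTSL, the nearest relative of CTSV and a widely expressed lysosomal endopeptidase, measured 9.20, 9.19 and 9.05 in untreated replicates 1 to 3, and 9.08, 9.11 and 9.14 in FAC replicates 1 to 3. The groups overlapped, and the log2 difference was -0.04 ± 0.06 (SE), with a 95% interval from -0.18 to 0.10 and adjusted p = 0.815 by limma. Since the files give no probe sequences, how far RNA of one paralog reaches the probe of the other was not tested.

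CTSB, a lysosomal endo- and exopeptidase, stood at percentile 59.5 of the tested genes by intensity. It measured 7.76, 7.71 and 7.79 in untreated replicates 1 to 3, and 7.57, 7.63 and 7.64 in FAC replicates 1 to 3. All FAC arrays were lower, but the log2 difference of -0.14 ± 0.05 (SE) did not pass (adjusted p = 0.225 by limma). CTSZ, a carboxypeptidase, measured 8.71, 8.74 and 8.81 without FAC and 8.60, 8.65 and 8.69 with it, again without overlap. Its log2 difference was -0.11 ± 0.06 (SE; adjusted p = 0.383 by limma). CTSC, the dipeptidyl peptidase that activates serine proteases of immune cells, had the widest untreated spread, with 10.32, 10.75 and 10.55 against 10.49, 10.35 and 10.38 with FAC. Its log2 difference was -0.13 ± 0.11 (SE) with a 95% interval from -0.38 to 0.11. That difference was -0.24 without untreated replicate 1 and -0.025 without untreated replicate 2, so single arrays set its size.

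The aminopeptidase gene CTSH had a log2 difference of 0.05 ± 0.06 (95% interval -0.08 to 0.18), CTSF one of -0.06 ± 0.07 (-0.21 to 0.10) and CTSO one of -0.04 ± 0.08 (-0.22 to 0.14). The groups overlapped in all 3. CTSS, the cathepsin of antigen-presenting cells, measured 4.38 ± 0.08 and 4.40 ± 0.05 (SD, n = 3 each), at percentile 7.7 of the tested genes by intensity. The table holds no detection calls, so a change of CTSS could be missed at this level. Over these 8 genes the highest upper end of a 95% interval was 0.18 on the log2 scale, that of CTSH.

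**Figure D2:**
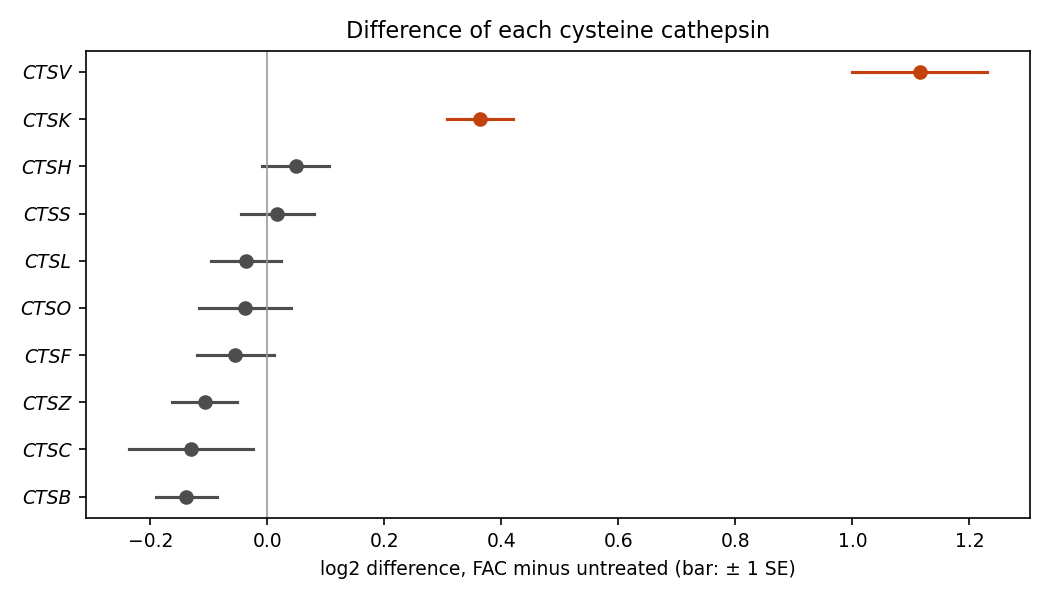
Log2 difference, FAC minus untreated (x axis), of each cysteine cathepsin (rows), with bars of ± 1 SE from the fit across all genes. CTSV at 1.11 and CTSK at 0.36 lie to the right, and the other 8 lie between -0.14 and 0.05.

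The nearest measured neighbours of the 2 genes on their chromosomes did not pass the test. CTSK lies between CTSS and ARNT, a partner of hypoxia-inducible factors, among genes with a named probe. ARNT had a log2 difference of -0.00037 ± 0.07 (SE; adjusted p = 0.997 by limma). For CTSV the nearest named genes were LOC100132781, at 0.06 ± 0.08, and the pseudogene GAS2L1P2, at 0.05 ± 0.06, neither of which passed. Both were dim, at percentiles 22.3 and 16.4 by intensity, as was CTSS at 7.7, so a change of these could be missed. ARNT stood at percentile 94.1.

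Among 15 other lysosomal proteases and papain-like proteins, LGMN fell and no gene rose. LGMN encodes legumain, the asparaginyl endopeptidase that cleaves several cathepsins in the lysosome. It measured 10.61, 10.62 and 10.66 in untreated replicates 1 to 3, and 10.39, 10.39 and 10.41 in FAC replicates 1 to 3. The groups did not overlap, and the log2 difference was -0.24 ± 0.05 (SE; 0.849-fold, adjusted p = 0.0440 by limma). The call was lost in 9 of 14 alternative analyses, where the adjusted p reached up to 0.157. With 1 array left out it ran from 0.0837 (without untreated replicate 2) to 0.157 (without FAC replicate 1), so no call remained without any 1 of the 6 arrays, while the log2 difference stayed between -0.25 and -0.22. The share that passed, 1 of 15, stands beside 1.85% of all genes that were lower. FAC arrays lay below all untreated arrays in 4 of the 15 and above them in 0, against 13% and 10.4% of all genes. Besides LGMN these were CPQ (-0.14 ± 0.06), the aspartic protease gene CTSD (-0.09 ± 0.05) and the carboxypeptidase gene CTSA (-0.08 ± 0.05), none of which passed. The cysteine cathepsin CTSW measured 0.06 ± 0.07.

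None of 18 measured inhibitors of cysteine cathepsins, of 24 listed, passed limma's test, against 3.73% of all genes. Among the 18, 1 had an unadjusted p under 0.05, against 17.2% of all genes. That gene was CSTA, the cytosolic inhibitor stefin A, with 4.24, 4.12 and 4.20 in untreated replicates 1 to 3 and 4.35, 4.48 and 4.42 in FAC replicates 1 to 3. All FAC arrays were higher, as for 10.4% of all genes, by 0.23 ± 0.06 (SE) on the log2 scale (adjusted p = 0.0919 by limma). But CSTA stood at percentile 7.0 by intensity. The brighter inhibitor genes were CSTB, encoding stefin B, at 0.10 ± 0.05, and CST3, encoding the secreted cystatin C, at -0.03 ± 0.06. The median over the 18 was 0.06, and 12 of them lay among the dimmest 33.3% of tested genes.

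Of 15 genes of mannose 6-phosphate tagging and sorting, which deliver cathepsins to lysosomes, 6 had a named probe. Of the 6, 0 passed limma's test and 0 had an unadjusted p under 0.05. Over all genes these shares were 3.73% and 17.2%, so 0 of 6 is near that background. The receptor genes M6PR (0.11 ± 0.06, adjusted p = 0.419 by limma) and IGF2R (0.03 ± 0.06) carry tagged enzymes from the Golgi. Of 30 listed symbols of MiT/TFE factors, hydrolases and membrane proteins of lysosomes, 14 had a named probe. Among the 14, 0 passed limma's test and 1 had an unadjusted p under 0.05, against 3.73% and 17.2% of all genes. That 1 was MITF, a transcription factor of pigment cells and osteoclasts that acts on CTSK in the latter. Its log2 difference was -0.15 ± 0.06 (adjusted p = 0.215 by limma), with FAC arrays below all untreated ones, as for 13% of all genes. The lysosomal membrane genes LAMP1 (-0.01 ± 0.06) and LAMP2 (-0.0052 ± 0.06) and the regulator genes TFEB (-0.13 ± 0.09) and TFE3 (0.05 ± 0.07) lay near 0 or within 2 SE of it. The median of this list was -0.01.

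Among 20 genes of autophagy and of ferritin delivery to lysosomes, 16 had a named probe. Of the 16, 0 passed limma's test and 1 had an unadjusted p under 0.05, against 3.73% and 17.2% of all genes. FAC arrays lay above all untreated arrays in 4 of the 16 and below them in 1, against 10.4% and 13% of all genes. The 4 were SQSTM1 (0.14 ± 0.06), OPTN (0.09 ± 0.05), TAX1BP1 (0.07 ± 0.05) and NCOA4 (0.02 ± 0.05), and the 1 was ATG9A. NCOA4 is the receptor that takes ferritin to lysosomes. ATG9A, a membrane scramblase of early autophagy, measured 10.19, 10.23 and 10.22 in untreated replicates 1 to 3, and 10.04, 10.03 and 9.998 in FAC replicates 1 to 3. Its log2 difference was -0.19 ± 0.05 (SE; adjusted p = 0.0886 by limma). It passed in 2 of 14 alternatives, without the dimmest genes (adjusted p = 0.0374) and under a robust variance prior with an intensity trend (adjusted p = 0.00986).

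Of the osteoclast genes that accompany CTSK in bone, 7 of 18 had a named probe. None of the 7 passed limma's test and 1 had an unadjusted p under 0.05, against 3.73% and 17.2% of all genes. That 1 was the carbonic anhydrase gene CA2 (-0.17 ± 0.07, adjusted p = 0.254 by limma), which was dim, at percentile 19.1 by intensity. The 3 measured osteoclast markers, CALCR, DCSTAMP and OCSTAMP, all lay among the dimmest 33.3% of tested genes, and their summed linear intensity ran from 111 to 131 without FAC and from 117 to 132 with it. Of 8 macrophage markers, 4 had a named probe and 1 of these passed. It was CSF1R, the receptor of a macrophage growth factor, which fell (-0.37 ± 0.07, adjusted p = 0.0365 by limma), where 1.85% of all genes were called lower. The CSF1R call was lost in 8 of 14 alternatives, with an adjusted p from 0.0875 (without FAC replicate 3) to 0.146 (without FAC replicate 1) when any 1 array but untreated replicate 2 was left out. The other 3 did not pass, with log2 differences of -0.12 for CD68, 0.04 for CD14 and 0.07 for CD163. By intensity CD68 stood at percentile 98.5, while CD14 (percentile 17.0) and CD163 (9.6) were dim. The summed intensity of those 4 markers was 3127 to 3275 in untreated and 2813 to 3011 in FAC-treated cultures, a sum to which CD68, the brightest of them, gives the most. The part of these markers in the values of CTSV and CTSK was not tested. The 4 measured markers of thymic epithelium and keratinocytes, FOXN1, KRT5, KRT14 and IVL, were all in the dimmest 33.3%, with sums of 208 to 223 and 214 to 230. Of 6 fibroblast markers, 2 had a named probe, THY1 and DPT, with sums of 162 to 171 and 155 to 175. No array value is a true zero, so none of these markers can be called absent.

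Markers of retinal pigment epithelium were mixed in level. Of 13 measured, 0 passed limma's test and 1 had an unadjusted p under 0.05, against 3.73% and 17.2% of all genes. That 1 was RLBP1 (0.31, adjusted p = 0.0843 by limma). OTX2, KRT18, TIMP3 and TYRP1 lay above percentile 92 by intensity, while RPE65 (percentile 22.6), BEST1 (26.5) and LRAT (29.4) were dim. The summed intensity of the 13 markers ran from 11133 to 12752 without FAC and from 11965 to 12408 with it. Untreated replicate 2 was the lowest array for TYR and TYRP1, as it was for CTSV and CTSK. TYR measured 7.97, 6.88 and 7.86 in untreated replicates 1 to 3, and 7.43, 7.67 and 7.49 in FAC replicates 1 to 3. TYRP1 measured 10.45, 9.48 and 10.28 without FAC and 9.87, 9.93 and 9.82 with it. Why this culture differed was not tested.

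Among matrix proteins that cathepsins K and V cleave, 5 of 10 had a named probe and the fibrillar collagen genes were not among them. None of the 5 passed limma's test, against 3.73% of all genes. An unadjusted p under 0.05 was seen for 2, DCN and FN1, both lower, against 17.2% of all genes in either direction. DCN, encoding the small proteoglycan decorin, measured 5.67, 5.61 and 5.76 in untreated replicates 1 to 3, and 5.47, 5.25 and 5.17 in FAC replicates 1 to 3. It was dim, at percentile 19.6 by intensity, and so was not tested in the alternative without the dimmest genes. The FAC arrays lay below all untreated ones, as for 13% of all genes, and the log2 difference was -0.38 ± 0.09 (SE; adjusted p = 0.0539 by limma). It passed in 3 of 13 alternatives: with each array centred on its median (adjusted p = 0.0492), under a robust variance prior with an intensity trend (0.0392) and without FAC replicate 1 (0.0438). FN1, encoding fibronectin, had a log2 difference of -0.14 ± 0.05 (adjusted p = 0.208 by limma), and ELN, encoding elastin, one of 0.10 ± 0.10.

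**Figure D3:**
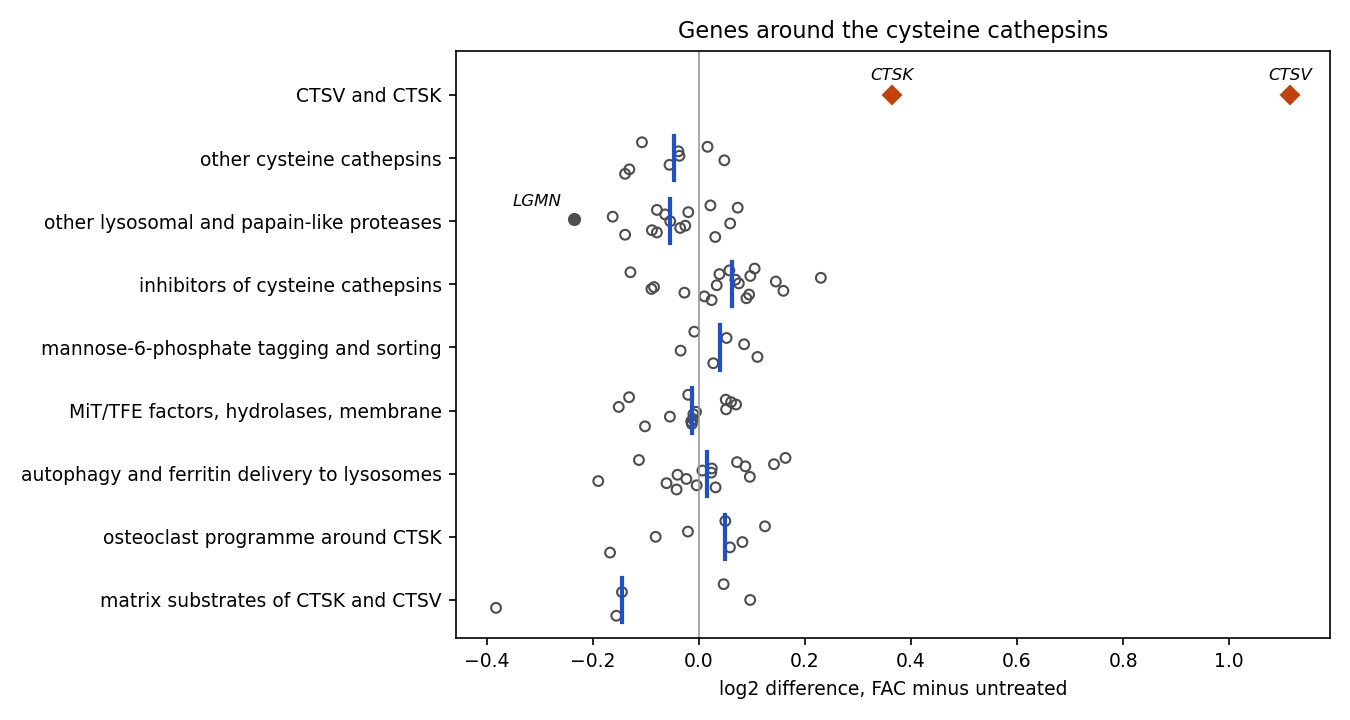
Log2 difference, FAC minus untreated (x axis), of every measured gene in 8 lists around the cysteine cathepsins (rows); filled circles passed limma's adjusted p of 0.05, open circles did not, vertical bars are list medians, and diamonds are CTSV and CTSK, for which no test is given. LGMN at -0.24 is the 1 filled circle, and all 8 medians lie between -0.14 and 0.06.

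The genes whose pattern over the 6 arrays was most like CTSV, by Pearson's r of log2 intensity, were FRY, TSPAN14, LINC00968, NSMAF and PARD3B, with r from 0.995 to 0.999. These points share 2 treatment groups, so r mostly reflects the step between them, and 128 genes had an r over 0.95 among the 13611 left after small RNA genes and LOC loci were taken out. FRY, a scaffold of kinases that shape cells, measured 8.55, 8.41 and 8.47 in untreated replicates 1 to 3, and 9.03, 9.21 and 8.99 in FAC replicates 1 to 3. The order of the 6 arrays was the same as for CTSV, with a log2 difference of 0.60 ± 0.07 (SE). TSPAN14, a tetraspanin, had nearly the same shape with a log2 difference of only 0.09 ± 0.05.

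For CTSK the most alike were PTGIS, the prostacyclin synthase gene, TKT, the pentose phosphate enzyme gene, KLHL29, HMGB2 and PHLPP1, with r from 0.996 to 0.999 over the 6 arrays, and 153 of the same 13611 genes had an r over 0.95. PTGIS measured 9.96, 9.71 and 9.90 in untreated replicates 1 to 3, and 10.53, 10.59 and 10.59 in FAC replicates 1 to 3, a log2 difference of 0.71 ± 0.07 (SE). TKT measured 11.87, 11.66 and 11.83 without FAC and 12.31, 12.37 and 12.29 with it, a log2 difference of 0.54 ± 0.07 (SE). As in CTSK, untreated replicate 2 was the lowest array in both. No p is given for these correlations, since the genes were picked for them.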

How the data were processed

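Total RNA of the 6 cultures was amplified, biotin labelled and hybridised to arrays, per the labels' protocols. The authors deposited 1 table of log2 intensities, 53617 probes by 6 arrays. Per the submitters' processing notes, Partek 6.6 and RMA were used; what each did is not given. The range of the values shows the log2 scale, and array medians ran from 6.03 to 6.09. The table has no detection calls or scan dates, and its genome build is not given in the sources used here.

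Through the platform annotation 16098 probes had a single gene symbol and 37519 had none. The probe with the highest mean stood for a gene. The test was limma's (version 3.58.1, R 4.3.3; default eBayes, 2-sided, Benjamini-Hochberg over 14884 genes, all 6 arrays), and it was tested on simulated data. The members and lists were chosen with earlier results of these data known. From each list the text names the members that passed (at most 4, by size of change), or the 1 with the smallest p, and some further members for their role, after their values were seen. It also names the nearest neighbours and the 5 most alike genes. No paired fit was used as the main one: deviations of same-numbered arrays correlated at -0.02, -0.03 and -0.15. The number of arrays limits the precision.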

Additional observations from a re-analysis of the deposited data

How the results depend on the processing

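CTSV and CTSK had a log2 difference between 1.00 and 1.20 and between 0.32 and 0.39 over the 14 alternatives, always above 0. In each, they moved by less than the SD pooled over both groups (0.18 for CTSV, 0.05 for CTSK). This is a description and no support, since the same values chose the genes. Changes of the gene set, the probe choice, the prior or the block left both differences as they were. Leaving out 1 array could not reverse groups that do not overlap. None of the 8 other cysteine cathepsins passed in any of them. Signs turned for differences near 0 when 1 array was left out: CTSF then ran from -0.10 to 0.0063 (without untreated replicate 3), CTSO from -0.087 to 0.024 (without untreated replicate 1, and also above 0 without FAC replicate 3), and CTSS from -0.024 (without untreated replicate 1, and also below 0 without FAC replicate 1) to 0.059. Of all genes, 555 passed, against 840 without the dimmest genes, 1026 with a trended robust prior, 254 when every probe was tested, 184 with the replicate number as a block, and 147 to 447 with 1 array left out. The lysosomal protease list went from 1 call, LGMN, to 0 with quantile normalization, with every probe tested, with the replicate block and without any 1 array. The autophagy list gained 1 call without the dimmest genes and 1 with the trended robust prior. The matrix substrates gained 1 with median centring, 2 with the trended robust prior, and 0 to 1 with 1 array left out. The block changed the count of no other of the 8 gene lists. Among the marker genes, the CSF1R call was followed through the same alternatives after the data were seen, and was lost with quantile normalization (adjusted p = 0.0511 by limma), with every probe tested (0.132), with the replicate block (0.0831) and without any 1 array except untreated replicate 2. The causes were not tested. The sample titles give replicate numbers only and do not say whether same-numbered cultures were handled together. Deviations of same-numbered arrays did not correlate above 0, but 3 arrays per group cannot settle whether they were paired.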
